A study of Mus musculus with 7 samples.

Results

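The transcripts described here were those of 10 genes of the fibroblast growth factor (FGF) system, 6 ligands (Fgf1, Fgf2, Fgf7, Fgf9, Fgf10 and Fgf18) and 4 receptors (Fgfr1, Fgfr2, Fgfr3 and Fgfrl1), chosen by symbol from the 53465 genes of the RSEM table and read in all 7 libraries. RNA came from orthotopic tumors of the mouse mammary carcinoma line EMT6, grown from 500000 cells in female Balb/c mice aged 6 to 8 weeks. The 3 EMT6-P tumors received an isotype control antibody and the 3 EMT6-PTR tumors, which the labels call PDR, received an antibody against PD-L1. Both groups were dosed at 250 μg per mouse every 3 days from day 1 until endpoint. The groups thus share the cell line, the host, the site, the dose and its interval. The time to endpoint and the total dose are not given here and may differ between the groups. The seventh library, EMT6-PTR met, was a metastasis of the resistant variant under the same antibody, with no replicate and with no organ given in its labels. The labels do not say that the replicates came from separate mice. The study's figure legend treats replicates as technical where nothing else is stated, and it does not call those of this RNA-seq biological. The p-values therefore measure only the spread between these samples, each of which is called a tumor below for short.

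FGFs are secreted proteins that bind receptor tyrosine kinases together with heparan sulfate, and the bound receptor signals through the adaptor FRS2 to the RAS and MAP kinase cascade. That cascade induces its own inhibitors, among them the Sprouty proteins and the DUSP phosphatases. Fgf7 and Fgf10 are largely made by mesenchymal cells and act on the epithelial splice form of Fgfr2. The pairing of Fgf10 with that form is required for lung branching and mammary bud formation. Fgf1 binds all signaling receptors, Fgf9 and Fgf18 act mainly on the mesenchymal forms of Fgfr2 and Fgfr3, and Fgfrl1 lacks a kinase domain. Counts per gene cannot separate these splice forms.

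Total estimated counts ranged from 20430110 to 25213472 per library. Casein beta (Csn2) and whey acidic protein (Wap), markers of secreting mammary epithelium, were at 0 in all 7 libraries. The other markers listed for it were not: Csn3 held 3 to 10 estimated counts per library and Prlr 0 to 15. Elf5 held 185 in the metastasis and 0 to 19 in the tumors. EMT6-PTR replicate 3 stood apart: fibroblast markers summed to 18144 CPM (counts scaled to library size, on the upper-quartile scale) against 5512 to 8588 in the other 5 tumors, and epithelial markers to 616 against 2387 to 2733. Pdgfra, Pdgfrb, Col1a2, Dcn, Lum, Fap and Postn were each highest of the tumors there, and Col1a1 lay within the range of the others. Thy1, at 6.68 against 63.2 to 114 CPM, and Pdpn, at 39.3 against 60.2 to 77.4 CPM, were lowest there. Of the epithelial markers, Epcam, Krt19, Krt5 and Cldn4 lay within the range of the other tumors. EMT6-PTR replicate 2 had 13.8% of its counts on the gene CT010467.1, against 0.433% to 1.35% in the other libraries, and it was the highest EMT6-PTR tumor for Fgf7, Fgf10, Fgfr2 and Fgfr3. Skeletal muscle markers summed to 3970 CPM in EMT6-PTR replicate 1 and to 3.56 to 593 in the other tumors. The part of these differences in the FGF values was not tested. Lung markers summed to 8105 CPM in the metastasis and to 1.45 to 26.1 in the 6 tumors, and the lung transcription factor Nkx2-1 was at 26.5 CPM in the metastasis and at 0 in every tumor. In tissue RNA, a change in the number of cells of a type and a change in RNA per cell cannot be told apart.

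The upstream sequence of the 3 members that stood furthest above the EMT6-PTR tumors in the metastasis is shown because their rise there is the largest difference among the 10 genes. The windows end at the start annotated by RefSeq on GRCm38.p6, or, for Fgfr3, before the first Fgfr3 exon of GENCODE M21. They lie at chr7:130266809-130267058 on the minus strand for Fgfr2, chr13:118714449-118714698 on the plus strand for Fgf10 and chr5:33721474-33721673 on the plus strand for Fgfr3. Capitals mark CCGCCC, the reverse strand of the GC box GGGCGG.
Fgfr2: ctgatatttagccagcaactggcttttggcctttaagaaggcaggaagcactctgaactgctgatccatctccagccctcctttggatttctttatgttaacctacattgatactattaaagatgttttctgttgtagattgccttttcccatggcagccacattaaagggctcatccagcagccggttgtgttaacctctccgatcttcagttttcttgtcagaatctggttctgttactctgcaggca
Fgf10: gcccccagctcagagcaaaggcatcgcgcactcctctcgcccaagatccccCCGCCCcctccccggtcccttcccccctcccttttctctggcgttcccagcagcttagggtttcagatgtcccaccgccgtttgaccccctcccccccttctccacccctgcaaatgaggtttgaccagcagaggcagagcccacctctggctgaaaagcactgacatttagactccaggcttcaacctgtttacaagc
Fgfr3: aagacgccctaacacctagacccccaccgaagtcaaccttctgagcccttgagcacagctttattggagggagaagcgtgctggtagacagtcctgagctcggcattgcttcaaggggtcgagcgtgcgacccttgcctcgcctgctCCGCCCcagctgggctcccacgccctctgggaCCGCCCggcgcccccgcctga

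The 3 windows differed in composition. Over the 250 bases before the RefSeq start, GC content was 44.0% with 2 CpG sites for Fgfr2, 61.2% with 8 for Fgf10 and 66.8% with 19 for Fgfr3, beside a median of 52.4% and 6 over 32851 promoter windows of that length. GGGCGG on either strand occurred 0 times for Fgfr2, 1 time for Fgf10 and 3 times for Fgfr3, and 32.7% of all windows held it. Windows on chromosome 18, the chromosome of Fgf1, were left out of the member counts. Then 8 members had a window, with 9 windows between them, and Fgfr1 had none. The GC box was held by 5 of these members and by 6 of the windows. None of the 9 windows held TATAAA on either strand, which 12.4% of all windows did. A second RefSeq window of Fgfr3, not printed, had 72.8% GC, 24 CpG sites and 2 GC boxes. The RefSeq start of Fgfr2 lay 545 bases upstream of the nearest GENCODE M21 transcript start. That of Fgf10 was also a GENCODE M21 transcript start, but the gene begins further upstream there, at 118669791. The printed windows of Fgf10 and Fgfr2 thus lay inside the GENCODE M21 spans of these genes.

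Among the kinase receptors, the transcripts of the primary tumors were almost all Fgfr1, while Fgfrl1, without a kinase, was the second highest member. Per kilobase of merged exon, the mean EMT6-P levels were 22.2 CPM per kb for Fgfr1, 12.5 for the kinase-less Fgfrl1, 4.14 for Fgf2, 1.32 for Fgf1, 0.383 for Fgf7, 0.279 for Fgfr3 and 0.186 for Fgf18. Fgf9, Fgfr2 and Fgf10 followed at 0.0343, 0.0323 and 0.0139 CPM per kb. The ranges over the 3 tumors overlapped between Fgf7 and Fgfr3, between Fgfr3 and Fgf18, between Fgf9 and Fgfr2 and between Fgfr2 and Fgf10, so that these neighbors did not differ beyond their spread, whereas Fgfr1, Fgfrl1, Fgf2 and Fgf1 stood apart from each other. Of the 4 kinase receptors summed per kilobase, Fgfr1 made up 97.5% to 98.9% in each of the 6 tumors and 71.3% in the metastasis.

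**Figure D1:**
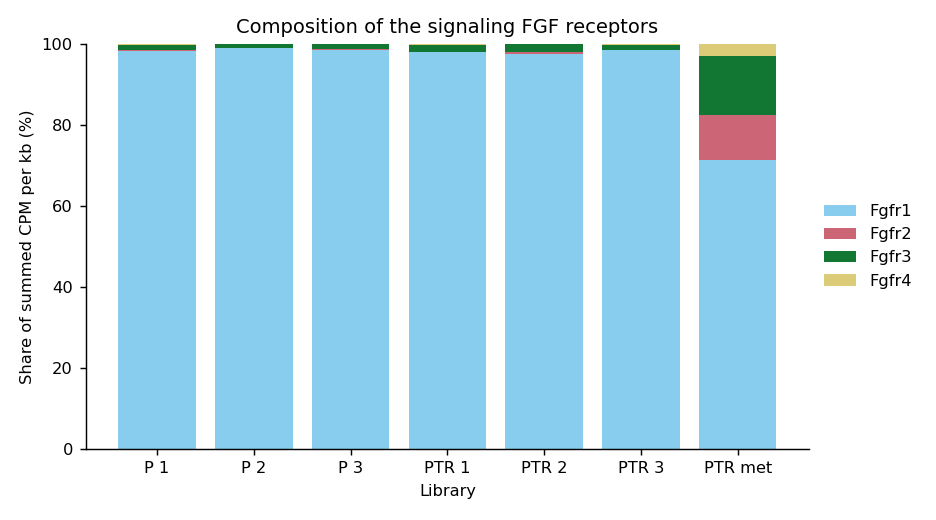
Share of each kinase FGF receptor in their summed level (CPM per kilobase of merged exon, in percent) for each of the 7 libraries, P for EMT6-P, PTR for EMT6-PTR and met for the metastasis. Fgfr1 fills at least 97.5% of every tumor bar, and in the metastasis Fgfr2, Fgfr3 and Fgfr4 take 11.2%, 14.6% and 2.94%.

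Resistant and control tumors were compared to ask which FGF transcripts differed after αPD-L1 treatment. Of the 10 members, 6 passed the filter on low counts (Fgf1, Fgf2, Fgf7, Fgfr1, Fgfr3 and Fgfrl1) and 4 did not (Fgf9, Fgf10, Fgf18 and Fgfr2). None of the 6 was called at an adjusted p under 0.05 by edgeR's quasi-likelihood test, and neither were any of the 15645 genes tested, a share of 0%. At an unadjusted p under 0.05, 1 of the 6 passed, Fgfr3, beside 11.4% of all genes (1786 genes). The same count of 1 of 6 had EMT6-PTR tumors all above the EMT6-P tumors, beside 9.52% of all genes, and none had them all below. In either direction the groups of 21.3% of all genes did not overlap. No member reached a fitted 2-fold difference, which 7.56% of all genes did. The median log2 fold change was 0.45 over the 6 members and 0.03 over all genes tested. DESeq2 called 281 genes and no member.

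Fgfr3, a receptor known in skeletal growth and in urothelial tumors, read 2.14, 1.96 and 1.89 CPM in EMT6-P replicates 1 to 3 and 2.75, 3.62 and 3.36 CPM in EMT6-PTR replicates 1 to 3. All 3 EMT6-PTR tumors thus lay above all 3 EMT6-P tumors, at 3.24 ± 0.447 against 2.00 ± 0.132 CPM (SD, n = 3 each). The log2 fold change was 0.70 ± 0.27 (SE), with an edgeR p of 0.0400 and an adjusted p of 0.433. It rested on 40 to 86 estimated counts per tumor. The fold change stayed between 0.61 and 0.80 under the 13 alternatives run, and the unadjusted p was 0.0732 with no filter on low counts and 0.0902 to 0.124 without EMT6-P replicate 1, 2 or 3 or EMT6-PTR replicate 2.

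Fgf1, the ligand that binds every kinase receptor, was at 5.12, 7.19 and 9.29 CPM in the EMT6-P tumors and at 6.98, 8.02 and 18.4 CPM in the EMT6-PTR tumors. The high value was that of EMT6-PTR replicate 3, the library with the raised sum of fibroblast markers, and the other EMT6-PTR tumors lay within the EMT6-P range. The log2 fold change of 0.63 ± 0.44 (SE; edgeR adjusted p = 0.575) fell to 0.06 without that replicate. The part of the fibroblast markers in this value was not tested.

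Fgf2, a ligand of tumor and stromal cells, moved the other way in the same tumor. It was at 27.7, 27.6 and 28.9 CPM in the EMT6-P tumors, a narrow range, and at 28.9, 23.4 and 15.4 CPM in the EMT6-PTR tumors. EMT6-PTR replicate 3 was the lowest and replicate 1 reached the top of the EMT6-P range, so that the groups overlapped. The log2 fold change was -0.31 ± 0.24 (SE; edgeR adjusted p = 0.596). Leaving out EMT6-PTR replicate 3 gave -0.10, and leaving out replicate 1 of that group gave -0.54, with an edgeR unadjusted p of 0.0527. Per kilobase, Fgf2 was 2.36 to 4.37 times as high as Fgf1 in 5 tumors, 0.674 times as high in EMT6-PTR replicate 3 and 0.633 times as high in the metastasis. Fgf2 overlaps Nudt6 on the opposite strand, and Nudt6 held 26.6 to 71.2 estimated counts in those 5 tumors, 230 in EMT6-PTR replicate 3 and 134 in the metastasis. The libraries were stranded, but the strand setting of the counting was not given in the sources used here.

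Fgf7, a mesenchymal ligand of epithelial Fgfr2, was at 0.829, 2.06 and 0.849 CPM in the EMT6-P tumors and at 2.05, 2.62 and 1.64 CPM in the EMT6-PTR tumors. EMT6-P replicate 2 lay inside the EMT6-PTR range and the other EMT6-P tumors lay below it. The log2 fold change was 0.75 ± 0.47 (SE; edgeR adjusted p = 0.538), and it was 1.32 without EMT6-P replicate 2, with an edgeR unadjusted p of 0.0248 and an adjusted p of 0.791. It was 0.53, 0.54 and 0.57 without EMT6-P replicate 1, EMT6-P replicate 3 and EMT6-PTR replicate 2, with edgeR unadjusted p-values of 0.332 to 0.364. These values rest on 17 to 47 estimated counts per tumor.

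Fgfr1, the main receptor of these tumors, was at 205, 251 and 202 CPM in the EMT6-P tumors and at 209, 233 and 351 CPM in the EMT6-PTR tumors. Only EMT6-PTR replicate 3 lay above the EMT6-P range. The log2 fold change was 0.27 ± 0.23 (SE; edgeR adjusted p = 0.639) and 0.01 without that replicate. Fgfrl1, a receptor without a kinase, was at 32.5, 37.8 and 34.3 CPM in the EMT6-P tumors and at 30.6, 23.5 and 37.7 CPM in the EMT6-PTR tumors. Its groups overlapped, with a log2 fold change of -0.19 ± 0.20 (SE; edgeR adjusted p = 0.703). The intervals of the 5 differences other than that of Fgfr3 included 0 and did not exclude sizeable differences, reaching from -0.42 to 1.69 for Fgf1 and from -0.28 to 0.82 for Fgfr1 on the log2 scale (95% intervals of the edgeR fit).

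**Figure D2:**
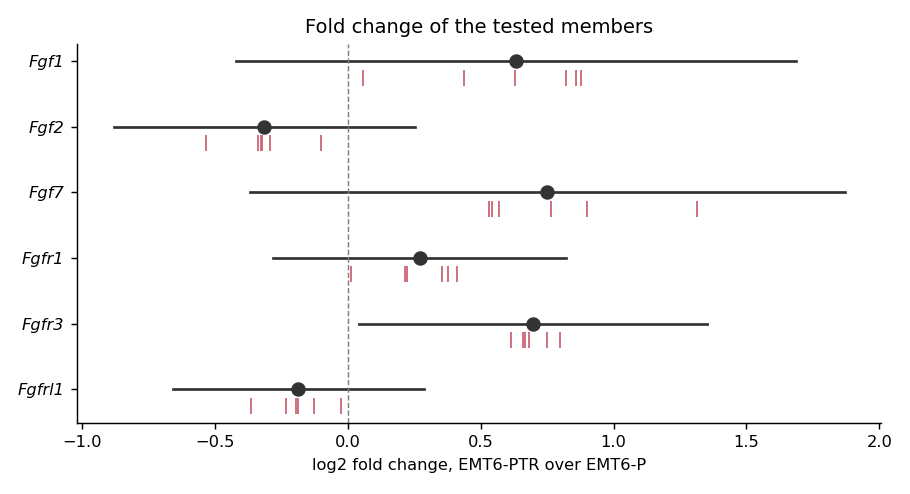
log2 fold change of EMT6-PTR over EMT6-P for the 6 members that passed the filter (circles, with lines for the 95% interval of the edgeR fit) and the values when each of the 6 tumors is left out (red ticks). The interval of Fgfr3 alone excludes 0, from 0.04 to 1.35, and the lowest ticks of Fgf1 and Fgfr1 are those without EMT6-PTR replicate 3.

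The 4 members below the filter were near the limit of detection in the tumors, and none had groups that did not overlap. Fgf10 held 0 to 2 estimated counts in EMT6-P, and in EMT6-PTR 2, 10 and 1. Fgf9 held 5, 1 and 4 against 13, 0 and 2, and Fgf18 held 2, 5 and 7 against 10, 4 and 8. Fgfr2 held 8.26, 2.10 and 10.6 estimated counts in EMT6-P, and in EMT6-PTR 4, 19.6 and 8.45. A library with 0 counts allows up to 3, and at this depth only a large difference between the groups could be seen for these genes. Fitted with no filter on low counts, their edgeR unadjusted p-values ran from 0.217 for Fgf10 to 0.723 for Fgf9. Fgfr2 also spans 2960900 bp in GENCODE M21, from 130162451 to 133123350 on chromosome 7, because of a single long transcript, and overlaps 69 other genes.

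**Figure D3:**
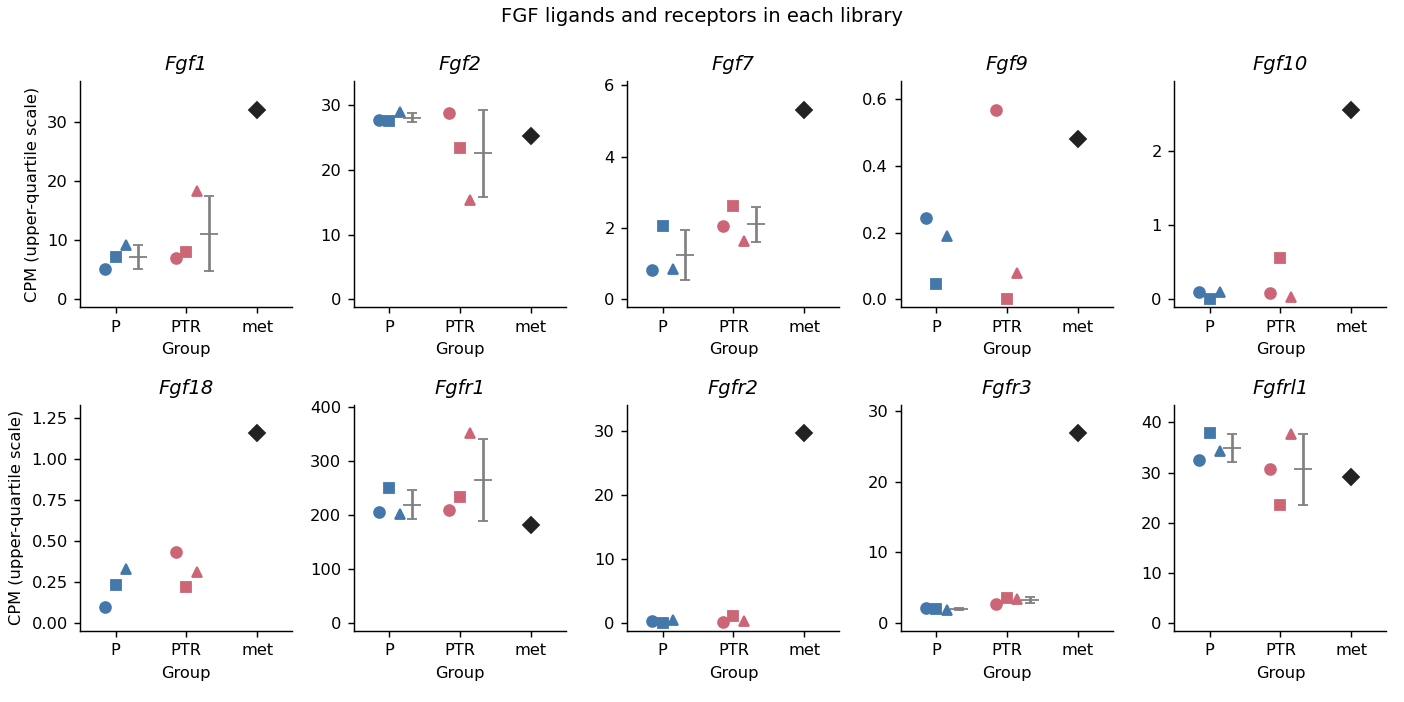
Level of each of the 10 members (CPM on the upper-quartile scale, linear axes that differ between panels) in the EMT6-P tumors (P, blue), the EMT6-PTR tumors (PTR, red) and the metastasis (met, black). Circles, squares and triangles are replicates 1, 2 and 3, and gray bars give the mean and SD (n = 3) for the 6 members that passed the filter. The metastasis is the highest of the 7 libraries for 6 members, and Fgf2, Fgf9, Fgfr1 and Fgfrl1 do not share this.

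The metastasis was set beside the 3 EMT6-PTR tumors to see which FGF transcripts differed at the distant site. Fgfr2, Fgf10 and Fgfr3 stood furthest above the tumors, and Fgf1, Fgf7 and Fgf18 were also higher than in any tumor. A fold of at least 2 over the mean of the EMT6-PTR tumors was found in 3 of the 6 tested members (Fgf1, Fgf7 and Fgfr3), beside 10.6% of all tested genes. It was found in all 4 members below the filter, beside 27.2% of the genes below the filter that had at least 3 counts over the EMT6-PTR tumors. None of the 6 lay at least 2-fold below that mean, as 11.1% of tested genes did. With 1 library there is no test, and the intervals given next cover counting error only (95%, exact binomial, counts of the 3 EMT6-PTR tumors pooled).

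Fgfr2 had 742 estimated counts in the metastasis, or 29.7 CPM, against 0.175 to 1.11 CPM in the EMT6-PTR tumors. The ratio to the pooled tumors was 61.6 (43.2 to 90.7), and the metastasis was 26.6 times the highest of the 6 tumors. Fgf10, its mesenchymal ligand, had 64 estimated counts or 2.56 CPM against 0.0391 to 0.557 CPM, a ratio of 13.1 (7.13 to 25.9). EMT6-PTR replicate 2 was the highest EMT6-PTR tumor for both genes, and without it the ratio to the mean of the others was 122 for Fgfr2 and 40.5 for Fgf10, in place of 55.6 and 11.2 over all 3. Receptor and ligand were thus both highest in the same library, the one with the lung markers.

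Fgfr3 was at 26.9 CPM in the metastasis against 2.75 to 3.62 CPM in the EMT6-PTR tumors, a ratio of 8.34 (7.14 to 9.77). Fgf18, a ligand of lung and skeletal development, had a ratio of 3.50 (1.943 to 6.396) on 29 counts in the metastasis. Fgf1 was at 32.2 CPM with a ratio of 2.76 (2.49 to 3.05), and it was 1.74 times EMT6-PTR replicate 3, the highest tumor. Against the mean of the EMT6-PTR tumors its ratio was 2.89, and 4.29 without that replicate. The intervals of these ratios all lay below that of Fgfr2.

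Fgf7 was at 5.32 CPM in the metastasis, a ratio of 2.598 (2.03 to 3.32). Fgf9 had 12 counts against 13 in EMT6-PTR replicate 1, and the interval of its ratio, 2.13 (0.908 to 4.86), included 1. Against the mean of the EMT6-PTR tumors the ratio of Fgf9 was 2.23 with all 3 and 12.3 without that replicate. The metastasis lay within the EMT6-PTR range for Fgf9, Fgf2 and Fgfrl1. Fgf2 was at 25.3 CPM, a ratio of 1.14 (1.03 to 1.25), and Fgfrl1 at 29.1 CPM, a ratio of 0.925 (0.849 to 1.01).

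Fgfr1, at 181 CPM, was lower in the metastasis than in each of the 6 tumors, with a ratio of 0.670 (0.649 to 0.692). The 4 kinase receptors summed to 25.7 CPM per kb in the metastasis and to 20.8 to 36.1 in the tumors. The sum thus lay within the range of the tumors, with a lower share of Fgfr1.

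Markers of some other cell types were also higher in the metastasis than in any tumor. Besides the lung markers, endothelial markers summed to 858 CPM in the metastasis against 117 to 163 in the tumors and neutrophil markers to 2819 against 23.8 to 56.7. Of the 6 endothelial markers, 5 were at least 2-fold above the EMT6-PTR mean. Emcn went the other way, at 8.51 CPM against 15.7 to 22.0 in the tumors. The epithelial cadherin gene Cdh1 was at 138 CPM against 3.40 to 9.69, while epithelial markers together, led by Krt8, summed to 1374 against 616 to 2733. Fibroblast markers summed to 8649 CPM in the metastasis, within the 5512 to 18144 CPM of the tumors. Pericyte and smooth muscle markers summed to 391 CPM, within 153 to 1193. Skeletal muscle markers were lower than in any tumor, at 2.04 CPM against 3.56 to 3970. The part of these markers in the FGF values of the metastasis was not tested.

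**Figure D4:**
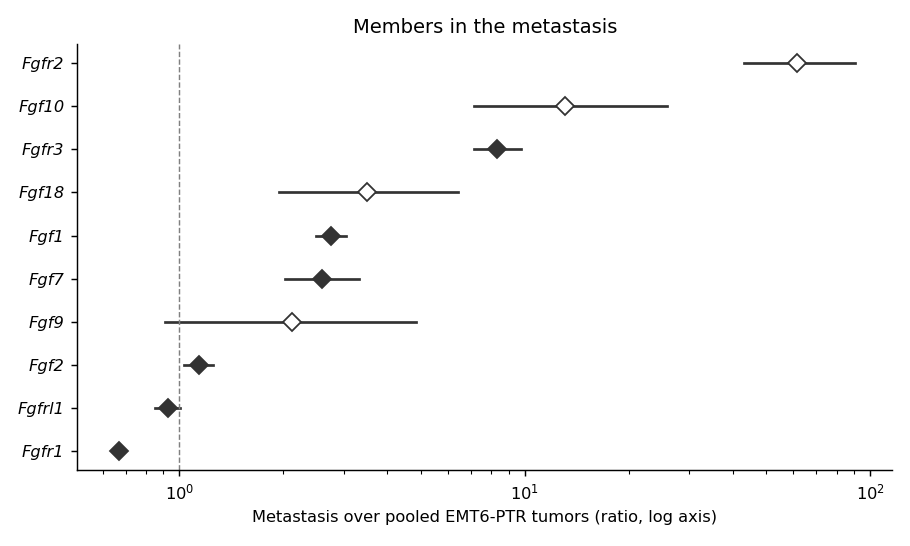
Ratio of the metastasis to the 3 EMT6-PTR tumors pooled (log axis) for the 10 members, with lines for the 95% interval from counting error alone. Filled diamonds are members that passed the filter and open diamonds those that did not. Fgfr2 stands at 61.6 and Fgfr1 at 0.670, and the interval of Fgf9 crosses 1.

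Other genes of the pathway were read from 6 lists. Of the 16 other FGF ligands, 3 were tested (Fgf11, Fgf13 and Fgf21) and 3 were at 0 in all 7 libraries. None of those tested passed an edgeR unadjusted p of 0.05, which 11.4% of all genes did. Fgf21, a metabolic hormone, was at 1.121 to 1.51 CPM in the EMT6-P tumors and at 1.57, 1.17 and 0.0391 CPM in the EMT6-PTR tumors, so that its log2 fold change of -0.53 (edgeR adjusted p = 0.828) came from the same replicate 3. Fgf11, an intracellular family member, had a log2 fold change of 0.32 (edgeR adjusted p = 0.564), and Fgf13, of the same branch, 0.13 (edgeR adjusted p = 0.962). Among the ligands not tested, Fgf14 held 241.5 estimated counts in EMT6-PTR replicate 3 and 0 to 10 in the other tumors. Fgf23 held 40 in the metastasis and 0 to 10 in the tumors. Both were picked after their values were seen. None of Fgfr4 and the klotho coreceptors Kl and Klb was tested. Fgfr4 was at 0 to 0.274 CPM in the tumors and at 2.68 CPM in the metastasis.

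Another list held genes that make, modify or carry heparan sulfate, the cofactor of the receptors, together with the FGF-binding protein genes Fgfbp1 and Fgfbp3. Of 21 listed, 20 were matched and tested, 3 had an unadjusted p under 0.05 and were higher in EMT6-PTR tumors, a count to be read beside the 11.4% of all genes, none was lower and none was called. Ndst1, which starts the sulfation of the chain, was at 44.8, 53.7 and 51.2 CPM in the EMT6-P tumors and at 73.7, 107 and 103 CPM in the EMT6-PTR tumors. All 3 resistant tumors lay above the controls, with a log2 fold change of 0.92 ± 0.18 (SE; edgeR adjusted p = 0.421). Of the 20 genes, 2 had all EMT6-PTR tumors above all EMT6-P tumors (Ndst1 and Sulf2), beside 9.52% of all genes. None had them all below.

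Sulf2, which removes sulfate from the chain, was at 11.01, 13.8 and 15.4 CPM against 19.3, 16.1 and 20.8 CPM, again without overlap (log2 fold change 0.48 ± 0.20 SE; edgeR adjusted p = 0.435). Gpc6, a cell surface glypican, had the largest difference of the 3, 2.18 ± 0.72 (SE; edgeR adjusted p = 0.427), from 2.97, 10.5 and 24.6 CPM in the EMT6-PTR tumors against 2.29 to 3.49 CPM. EMT6-PTR replicate 1 lay within the EMT6-P range for Gpc6. Without EMT6-PTR replicate 3, 1 of the 20 had an unadjusted p under 0.05, Ndst1, beside 20.3% of the 15941 genes tested in that fit. The median log2 fold change of the list was 0.26.

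Of the 9 receptor adaptors, none had an edgeR unadjusted p under 0.05, beside 11.4% of all genes. Without EMT6-PTR replicate 3 there were 2, Cbl and Sos1, beside the same 20.3% of all genes. Frs2, the docking protein of the FGF receptors, was at 41.1, 48.4 and 43.3 CPM in the EMT6-P tumors and at 50.0, 50.8 and 79.3 CPM in the EMT6-PTR tumors, without overlap (log2 fold change 0.44 ± 0.21 SE; edgeR adjusted p = 0.468). Gab1 and Frs3, which also dock downstream proteins, had log2 fold changes of 0.46 (edgeR adjusted p = 0.476) and 0.64 (edgeR adjusted p = 0.543), with groups that overlapped. Frs2 was thus the 1 of the 9 with all EMT6-PTR tumors above all EMT6-P tumors, beside 9.52% of all genes, and none had them all below. The median log2 fold change of the adaptors was 0.17.

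The feedback and target genes formed another list. Of 13 tested, none had an edgeR unadjusted p under 0.05, beside 11.4% of all genes. None had groups that did not overlap, beside 21.3% of all genes, and their median log2 fold change was 0.00. The genes with the lowest p-values were Etv1, a target transcription factor, Il17rd, a receptor inhibitor, and Spred2, a RAS inhibitor, at log2 fold changes of 0.37 (edgeR adjusted p = 0.596), 0.33 (edgeR adjusted p = 0.652) and -0.16 (edgeR adjusted p = 0.724). Without EMT6-PTR replicate 3, 3 of the 13 had an unadjusted p under 0.05, Dusp6 and Spry4 higher and Spry1 lower, beside 20.3% of all genes in that fit, and none was called. The receptor that made up most of the sum, Fgfr1, was highest in that replicate.

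Within that replicate the phosphatase genes Dusp4, Dusp5 and Dusp6 and the target Etv4, chosen here after their values were seen, were at 10.9, 10.5, 49.2 and 6.84 CPM. In the other 5 tumors Dusp6 was at 151 to 208 CPM and Etv4 at 25.7 to 39.0 CPM. Spry1 went the other way, at 116 CPM the highest of the 7 libraries, and Il17rd and Etv1 lay within the range of the other tumors. In the metastasis, 1 of the 13 was at least 2-fold above the EMT6-PTR mean, the receptor tyrosine kinase inhibitor Spry4, at 95.0 CPM against 2.77 to 12.1 CPM, and 5 were at least 2-fold below it, beside 10.6% and 11.1% of all tested genes.

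**Figure D5:**
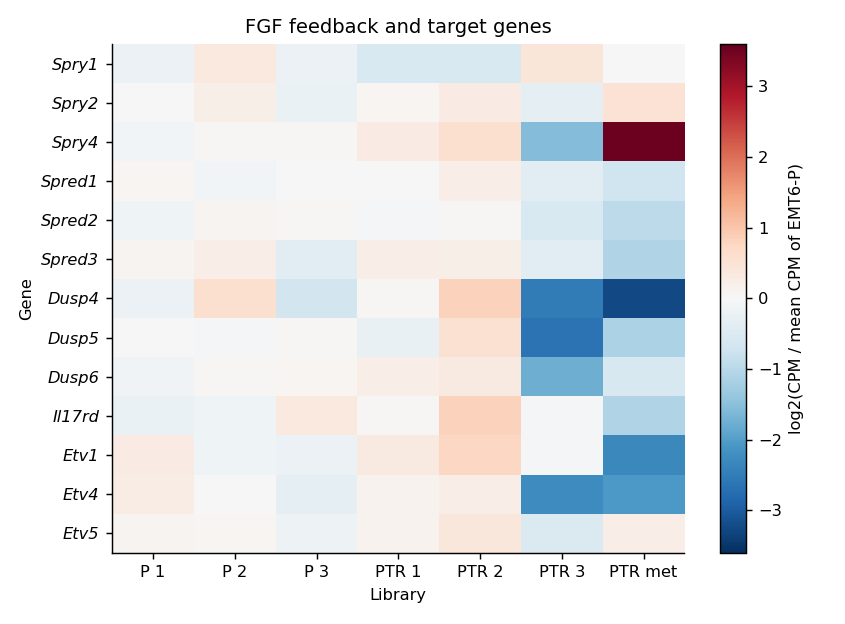
log2 of the CPM over the mean CPM of the 3 EMT6-P tumors for 13 FGF feedback and target genes (rows) in the 7 libraries (columns). Red is higher and blue lower. EMT6-PTR replicate 3 and the metastasis hold the darkest blue cells, and the darkest red cell is Spry4 in the metastasis, at 95.0 CPM.

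The splicing regulators that choose between the epithelial and mesenchymal receptor forms were the sixth list. Of 4 listed, 3 were tested and none had an edgeR unadjusted p under 0.05, beside 11.4% of all genes. The epithelial regulator Esrp2 had a log2 fold change of -0.34 (edgeR adjusted p = 0.750), Ptbp1 -0.24 (edgeR adjusted p = 0.670) and Rbfox2 0.18 (edgeR adjusted p = 0.643). In the metastasis Esrp2 was at 15.4 CPM against 0.891 to 2.38 CPM in the 6 tumors, and Esrp1 was at 12.5 CPM against 0 to 0.377 CPM. Both epithelial regulators were thus highest in the library in which Fgfr2 was highest.

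The genes most like Fgf1 and Fgfr3, the tested ligand and receptor with the widest range of log2 CPM at a prior count of 2, were found by the mean absolute difference in centered log2 CPM over the 7 libraries. For Fgf1 these were Ccdc189 (0.10), Sept1 (0.16) and Rnf167 (0.17). For Fgfr3 they were S1pr1 (0.09), Plxna2 (0.15) and Cd300lf (0.20). S1pr1, a sphingosine phosphate receptor of endothelial cells and lymphocytes, ran at 17.6 to 20.03 CPM in the EMT6-P tumors, 26.0 to 30.6 CPM in the EMT6-PTR tumors and 205 CPM in the metastasis.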

How the data were processed

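RNA-seq libraries of 3 EMT6-P and 3 EMT6-PTR primary tumors and of 1 metastasis were analysed. The authors made stranded polyadenylated libraries and, per the submitters' processing notes, used FastQC 0.11.5, STAR 2.6.0a and RSEM 1.3.1 with GRCm38. The deposited values are RSEM estimated counts, not normalized, which share reads between near-identical genes. All 7 columns were used.

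Counts were rounded. The 6 primary tumors were filtered with filterByExpr (minimum count 10), scaled by upper quartile and tested with edgeR 4.0.16 (glmQLFit, glmQLFTest; R 4.3.3), adjusted by Benjamini-Hochberg over all tested genes at 0.05. SE is the log2 fold change divided by the square root of F. Nearness of pattern used a prior count of 2. Symbols, positions and merged exon lengths came from GENCODE M21 (Fgf1 and Fgfr3 from later versions of their models). The list symbol Hspe matched no gene.

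The members and lists were chosen with earlier results of these data known. Genes named are the members, up to 3 tested genes of each pathway list with the smallest p plus those without overlap, and the 3 nearest patterns. Alternatives were TMM, DESeq2 1.42.0, limma-voom (limma 3.58.1), other filters, the metastasis in the fit, a replicate block and leaving out each tumor. The fits were also run on simulated counts with the same dispersion in both groups. In these data the dispersion differed between the groups, so that run cannot show how the fits behave here.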

Additional observations from a re-analysis of the deposited data

How the results depend on the processing

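No FGF member was called at an adjusted p under 0.05 under any of the 13 alternatives run on the primary tumors. DESeq2 called 281 genes where edgeR called 0, and the other 12 alternatives called 0. The count of members with an unadjusted p under 0.05, 1 by edgeR, was 0 with no filter on low counts and 0 to 2 when a tumor was left out (2 without EMT6-PTR replicate 3, Fgfr3 and Fgfrl1). With a replicate block it was 0, and 0 genes were called. Deviations from the group means correlated at 0.26, 0.25 and 0.04 between tumors of the same number, so that the numbers were not taken to pair the samples, and EMT6-P replicate 3 correlated best with EMT6-PTR replicate 1, at 0.10. No member changed the sign of its log2 fold change. The value of Fgf1 ranged from 0.06 to 0.88 and that of Fgfr1 from 0.01 to 0.41, each lowest without EMT6-PTR replicate 3. The cause was not tested. The count of members at least 2-fold apart in the metastasis, 7, was 6 without EMT6-PTR replicate 2 or replicate 3, when Fgf9 dropped out. Counting depth limits Fgf9, Fgf10, Fgf18 and Fgfr2. Over all genes the common dispersion was 0.246 in EMT6-PTR and 0.0266 in EMT6-P.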
